A study of Mus musculus with 18 samples.

Results

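Mouse G1E-ER4 cells were followed through erythroid maturation, and 49 genes of the machinery that drives cells from G2 through mitosis and cytokinesis were read out at 6 times. The genes were taken by symbol from the array's annotation and sorted into 9 groups by function: the CDK1 engine, mitotic kinases, the spindle checkpoint, the anaphase trigger, kinesins and spindle assembly, centromere and kinetochore, the chromosomal passenger complex, condensin with topoisomerase II, and cytokinesis. Of the 49 genes, 48 had a probe set annotated to that gene alone, out of 18193 genes in all, and the brightest such probe set over all arrays stood for the gene. The cyclin gene Ccnb1 had none and was not analysed here. All 48 lay above the low-signal filter, which left 12719 genes for testing. Between 0 and 14 h, 34 of the 48 genes were called higher by limma at an adjusted p under 0.05 (70.8%, against 22.2% of all tested genes). Between 21 and 30 h, 46 of the 48 were called lower (95.8%, against 22.5%). Set against the untreated start, the 30 h cells had 13 of the genes higher (27.1%, against 36.6% of all tested genes) and 27 lower (56.2%, against 33.0%). With arrays scaled instead to control transcripts spiked in before hybridisation, 22 genes were called lower in the last interval (45.8%, against 5.92% of all). Versus the start 10 were called lower (20.8%, against 20.3%).

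Entry into mitosis is driven by the kinase CDK1 bound to cyclins A and B and switched on by CDC25 phosphatases, while Aurora and Polo-like kinases build the spindle. Kinetochores join chromosomes to the spindle, a checkpoint holds the anaphase-promoting complex (APC/C, a ubiquitin ligase) until all chromosomes are attached, and the APC/C then releases the sister chromatids and ends mitosis. Most of these genes are transcribed in G2 and mitosis, through CHR and CCAAT elements bound by the DREAM and MuvB complexes and by NF-Y. Erythroid precursors divide a few last times as they mature and then leave the cell cycle.

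The cells were a line derived from G1E, Gata1-deficient mouse erythroid precursors, with a GATA1-estrogen receptor fusion that estradiol turns on. The labels give cells before estradiol (0 h) and after 3, 7, 14, 21 and 30 h in 20 nM estradiol, with 3 arrays at each time and 18 in all. All groups share this single line, and no untreated cells of the later times were analysed here, so time in culture and estradiol cannot be told apart. The arrays of a time are called biological replicates without mention of separate cultures, so the p-values measure the spread between these arrays, which may in part be technical.

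Arrays of the same time correlated at 0.995 to 0.998 over all probe sets, no pair was identical, and array medians lay between 4.04 and 4.09 on the log2 scale. The erythroid marker list (6 of 7 genes measured) had an array mean log2 level of 6.92 to 6.97 at 0 h, 10.42 to 10.50 at 21 h and 11.24 to 11.28 at 30 h. The mast cell and basophil list lay at 4.50 to 4.67 at 0 h and at 3.10 to 3.30 at 30 h. At 30 h the megakaryocyte list lay at 4.18 to 4.36, the granulocyte and macrophage list at 3.17 to 3.28 and the lymphoid list at 3.45 to 3.67. Fcer1a, Gp1bb, Ppbp, Mpo, Elane, Itgam and Cd3e of these other lineages did not pass the filter, while the other 16 markers measured passed it. Passing took a level above the 40th percentile on 3 or more arrays, not at every time. That percentile lay at 3.20 to 3.35, and at 30 h Cpa3 (mean 2.66) and Ms4a2 (2.14) were below it. The mast cell gene Cpa3 fell from 8.08 at 0 h to 2.66 at 30 h and the platelet gene Pf4 from 6.93 to 4.59, whereas the platelet gene Gp9 rose from 6.08 to 6.74 and the macrophage receptor gene Csf1r from 3.48 to 4.12 (mean log2 levels). Between 21 and 30 h, 1 of 6 tested mast cell and basophil markers and 1 of 3 tested megakaryocyte markers rose, 1 of 3 tested granulocyte and macrophage markers fell, and the 4 tested lymphoid markers did not pass the test. The part of these other-lineage markers in the results was not tested. The Gata1 probe set was at 10.21 ± 0.080 (SD, n = 3) at 0 h, but where it lies relative to the disrupted part of the gene is not stated, so it checks no label. The gap between 3′ and 5′ probe sets, a measure of RNA integrity, was 1.89, 1.87, 2.15 and 2.20 for Actb at 0, 14, 21 and 30 h (mean log2 difference). At these times it was 1.13, 1.19, 1.52 and 1.52 for Gapdh and 1.79, 2.03, 2.43 and 2.41 for Tfrc. The part of this gap in the results was not tested.

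Promoters of 7 members are shown because they bear on the pattern that follows: the 2 genes that ended highest above the start (Cdc25b, Nusap1), the 3 genes with such a sequence that ended lowest below it (Bub1b, Melk, Cdk1), and Plk1 and Top2a, which rose and then fell. Each is 300 bases of RefSeq sequence on build GRCm38.p6, from 250 bases before the annotated start to 50 bases from it on, written 5′ to 3′ on the gene's strand. Capitals mark the CHR element (TTTGAA or its variant TTCGAA) and the CCAAT box, searched on both strands, so that opposite-strand matches read TTCAAA and ATTGG. The windows are Cdc25b at chr2:131186698-131186997, plus strand, Nusap1 at chr2:119618048-119618347, plus strand, Bub1b at chr2:118597961-118598260, plus strand, Melk at chr4:44300667-44300966, plus strand, Cdk1 at chr10:69352863-69353162, minus strand, Plk1 at chr7:122159185-122159484, plus strand, and Top2a at chr11:99024140-99024439, minus strand.
Cdc25b: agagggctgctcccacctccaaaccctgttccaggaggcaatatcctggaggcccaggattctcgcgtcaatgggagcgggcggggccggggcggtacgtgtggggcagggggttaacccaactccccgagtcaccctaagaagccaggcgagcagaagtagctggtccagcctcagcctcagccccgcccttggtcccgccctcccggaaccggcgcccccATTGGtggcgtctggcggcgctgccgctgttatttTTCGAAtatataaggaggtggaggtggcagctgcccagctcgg
Nusap1: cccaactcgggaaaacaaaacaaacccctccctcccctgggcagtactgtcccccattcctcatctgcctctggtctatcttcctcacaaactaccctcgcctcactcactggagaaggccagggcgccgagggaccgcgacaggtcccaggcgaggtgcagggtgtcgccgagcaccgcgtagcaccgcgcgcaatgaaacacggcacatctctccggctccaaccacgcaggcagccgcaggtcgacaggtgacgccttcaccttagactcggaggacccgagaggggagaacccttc
Bub1b: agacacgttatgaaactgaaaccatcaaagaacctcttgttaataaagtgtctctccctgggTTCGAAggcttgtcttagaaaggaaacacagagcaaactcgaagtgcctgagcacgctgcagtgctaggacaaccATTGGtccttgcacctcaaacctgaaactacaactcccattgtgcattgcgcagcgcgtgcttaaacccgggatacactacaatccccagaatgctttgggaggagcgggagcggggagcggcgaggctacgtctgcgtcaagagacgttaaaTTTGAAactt
Melk: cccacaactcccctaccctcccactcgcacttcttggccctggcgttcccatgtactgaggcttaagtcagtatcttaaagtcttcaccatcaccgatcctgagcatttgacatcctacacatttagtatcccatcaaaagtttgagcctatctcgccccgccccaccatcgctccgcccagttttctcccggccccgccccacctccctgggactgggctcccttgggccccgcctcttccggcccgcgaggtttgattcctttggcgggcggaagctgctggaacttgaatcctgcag
Cdk1: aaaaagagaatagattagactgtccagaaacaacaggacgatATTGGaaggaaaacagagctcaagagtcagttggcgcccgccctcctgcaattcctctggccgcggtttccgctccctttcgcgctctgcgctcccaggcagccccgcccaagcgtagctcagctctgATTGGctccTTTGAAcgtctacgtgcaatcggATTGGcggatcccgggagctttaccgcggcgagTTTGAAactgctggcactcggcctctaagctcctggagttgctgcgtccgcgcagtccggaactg
Plk1: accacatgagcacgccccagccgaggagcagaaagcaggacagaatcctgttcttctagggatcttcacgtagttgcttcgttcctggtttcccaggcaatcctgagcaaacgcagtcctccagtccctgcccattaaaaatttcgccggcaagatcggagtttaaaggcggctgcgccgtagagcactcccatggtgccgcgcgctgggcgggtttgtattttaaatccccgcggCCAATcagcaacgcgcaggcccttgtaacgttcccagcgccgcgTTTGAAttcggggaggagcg
Top2a: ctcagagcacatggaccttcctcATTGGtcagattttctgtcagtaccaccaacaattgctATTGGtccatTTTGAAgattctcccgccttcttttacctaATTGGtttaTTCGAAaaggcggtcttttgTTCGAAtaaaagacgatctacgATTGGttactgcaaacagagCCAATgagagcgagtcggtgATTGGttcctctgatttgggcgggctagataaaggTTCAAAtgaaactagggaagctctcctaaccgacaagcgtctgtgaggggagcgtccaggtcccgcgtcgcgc
Cdk1 has TTTGAA at -71 and -15 and 3 CCAAT boxes, Plk1 has TTTGAA at +31 and CCAAT at -14, and Cdc25b has TTCGAA at +8 and a CCAAT box at -28, counted from the start. Top2a has 4 CHR matches and 6 CCAAT boxes. The windows of Nusap1 and Melk hold neither element.

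RefSeq gave such a window for 41 of the 49 genes, in 44 sequences. A CHR element was present in 31 of the 44 (70.5%), against 19.2% of all 32851 promoters of this length and 17.6% of the 21263 protein-coding ones. The CCAAT box was also in 31 of the 44 (70.5%), against 37.4% of all and 38.2% of protein-coding promoters. Both elements together occurred in 28 of the 44 (63.6%), against 7.52% of all promoters. GATA sites (AGATAA or TGATAA) were in 4 of the 44 (9.09%), against 18.6% of all, and E2F cores (TTTGGCG or TTTCCCG) in 6 (13.6%), against 4.84%. Matches to different motifs were allowed to overlap, and a match is a string of letters, not a shown binding site.

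In the values as deposited, the highest mean of the 6 times fell at 21 h for 35 genes, at 14 h for 7, at 3 h for 5 and at 0 h for Bub1b, and the lowest fell at 30 h for 31 genes, at 0 h for 14 and at 3 h for 3. The peak at 21 h depends on the scaling. For 21 h versus 14 h, 14 of the 48 genes were called higher as deposited. With arrays scaled to the spiked controls 0 were called higher, and 38 of the 48 differences were below 0. Changes were tested with limma on all 18 arrays, with Benjamini-Hochberg adjustment over the 12719 genes and a call at an adjusted p under 0.05. Because the values come from whole cultures, fewer dividing cells and less RNA of a gene per dividing cell cannot be told apart.

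**Figure D1:**
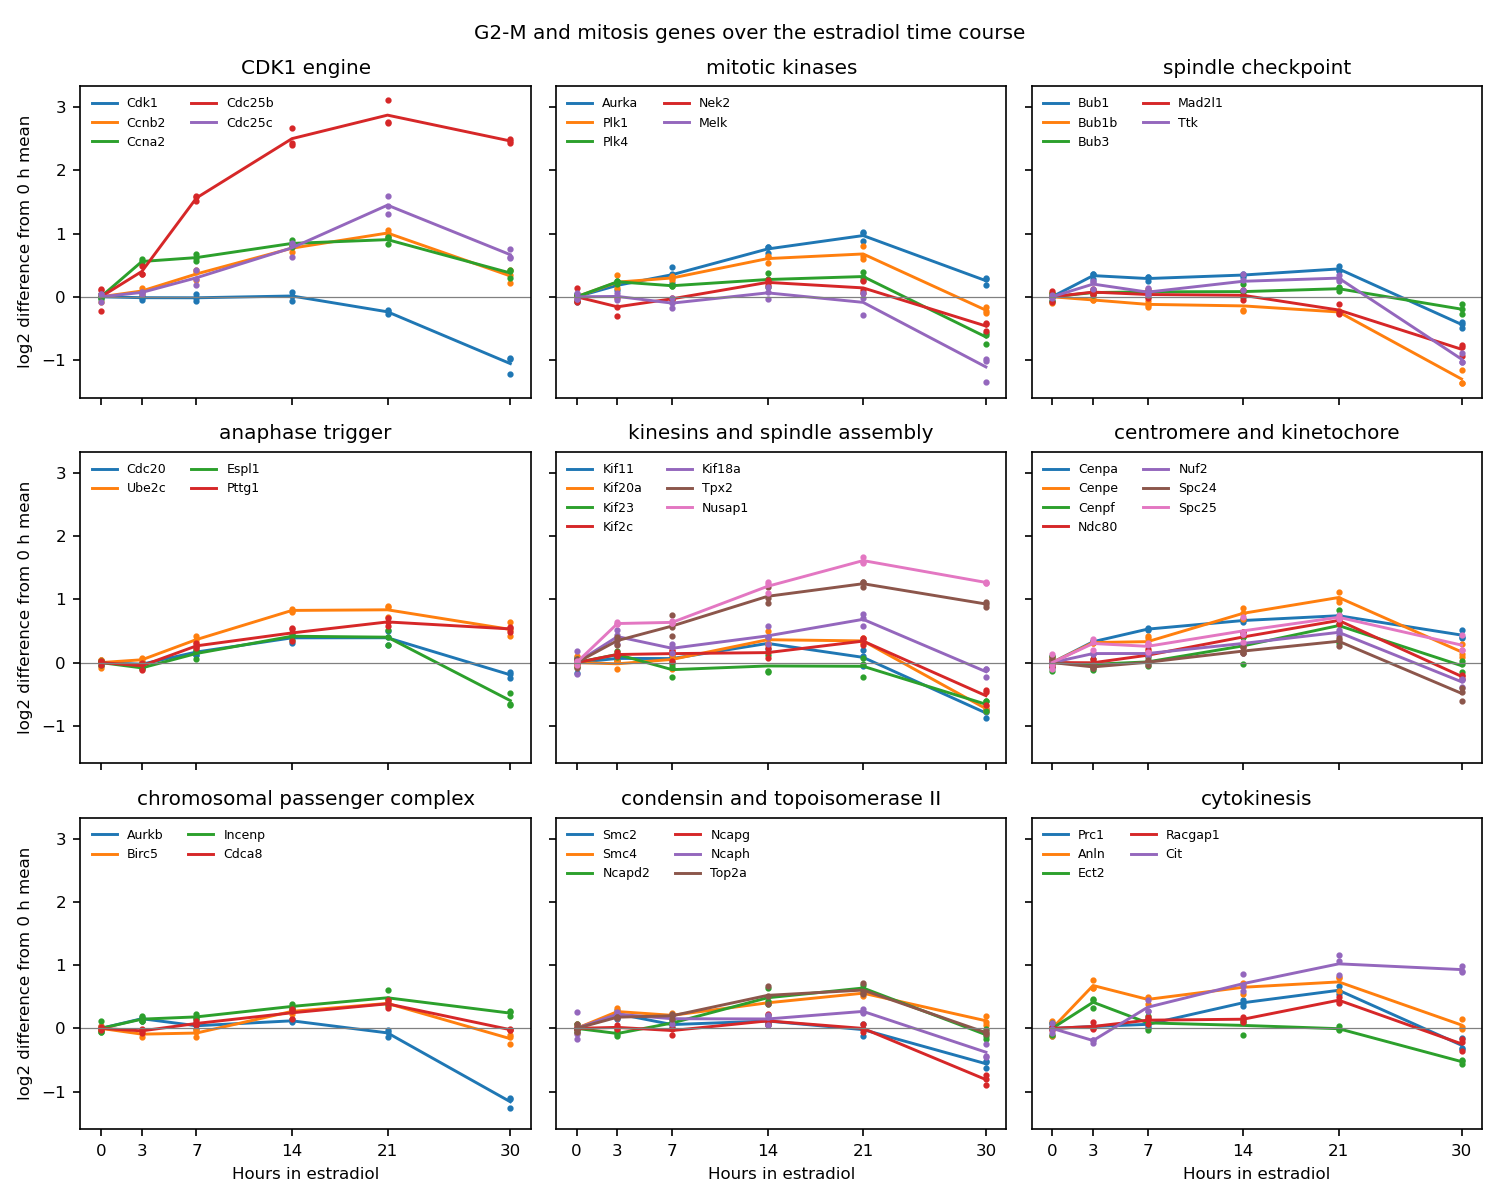
Log2 level of each of the 48 genes minus its own 0 h mean (vertical axis) against hours in estradiol (horizontal axis), with 1 panel for each of the 9 functional groups; points are arrays and lines join the means of 3. In these values as deposited, most lines climb to 21 h and drop at 30 h, where Cdc25b is 2.46 above its start and Bub1b stands at -1.30.

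Between 0 and 3 h, 17 of the 48 genes (35.4%) were called higher, against 11.2% of all tested genes, and 0 were called lower by limma (1 at an unadjusted p under 0.05), against 14.7%. The 17 were Ccna2, Cdc25b, Plk1, Plk4, Bub1, Ttk, Kif18a, Tpx2, Nusap1, Cenpa, Cenpe, Spc25, Aurkb, Smc2, Smc4, Anln and Ect2, of which Anln (0.68 on the log2 scale), Nusap1 (0.62) and Ccna2 (0.56) rose most. Plk4 turned to -0.02 (adjusted p = 0.899) when _x_at and _s_at probe sets were left out. When each array was instead scaled to its 18 hybridisation control probe sets, spiked transcripts added before hybridisation, only Anln, Nusap1 and Ccna2 were called (3.64% of all genes). The mean log2 level of these controls was 11.95, 11.85, 11.99, 11.72, 11.93 and 11.74 at 0, 3, 7, 14, 21 and 30 h. Whether they follow the amount of RNA in the cells was not tested. From 3 to 7 h, 7 genes (14.6%) rose, against 9.81% of all: Ccnb2, Cdc25b, Ube2c, Espl1, Pttg1, Cenpa and Cit. Ect2 alone was called lower, against 5.14% of all. With control scaling Cdc25b remained the 1 gene called higher (0.999% of all) and 0 genes were called lower by limma (1 unadjusted), against 1.36% of all, and without the 3 h replicate 3 array 4 genes were called higher.

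Between 7 and 14 h the rise was broadest, with 24 of 48 genes (50%) called higher, against 11.5% of all genes, and 0 called lower by limma (0 also at an unadjusted p under 0.05), against 10.8%. Control scaling called 16 of these 24 higher, against 10.3% of all. The median log2 difference of the 48 genes was 0.20, beside 0.00 over all tested genes. Over the whole first stretch, 14 h versus 0 h, 34 genes (70.8%) were higher, against 22.2% of all, and 0 were lower (0 also unadjusted), against 22.7%, with a median of 0.35 beside 0.02. Control scaling called 31 genes higher, against 21.9% of all, and 30 of them were among the 34.

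From 14 to 21 h calls went in both directions, with a smaller share lower than among all tested genes. Of the 48, 14 (29.2%) were called higher, against 15.7% of all, while Cdk1, Aurkb, Kif11 and Mad2l1 (8.33%) were called lower, against 17.5% of all. Cdc25c rose most, by 0.67, and the others that rose were Ccnb2, Cdc25b, Aurka, Pttg1, Kif18a, Nusap1, Cenpe, Ndc80, Cdca8, Smc4, Prc1, Racgap1 and Cit. These calls moved with the processing. With control scaling limma called 0 genes higher (1 at an unadjusted p under 0.05), against 0.959% of all, and 0 lower (4 unadjusted), against 13.0%. Under it 38 of the 48 differences were below 0 and 10 above, with a median of -0.11 beside -0.18 over all tested genes. As deposited, 13 were below 0 and 35 above, with a median of 0.11 beside 0.03. Of the genes called higher as deposited, Aurka, Pttg1, Cdca8, Smc4 and Prc1 had differences slightly below 0 with control scaling. A fit on the 6 arrays of these times alone called 3 higher, against 8.40%, and 0 lower (3 unadjusted), against 11.0%. Testing all 18193 genes without the filter called 8 higher, against 9.97%. Leaving out the 21 h replicate 1, 21 h replicate 2 or 14 h replicate 1 array left 6, 9 and 8 genes called higher, and the first of these left 1 called lower.

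The last interval carried the main change. From 21 to 30 h, 46 of 48 genes (95.8%) fell, against 22.5% of all tested genes, and 0 rose by limma (0 also at an unadjusted p under 0.05), against 18%. All 48 differences were below 0, with a median of -0.68 beside 0.01 over all genes, and the range ran from -1.28 for Ttk to -0.09 for Cit. The uncalled genes were Cit (adjusted p = 0.434) and Pttg1 (-0.11, adjusted p = 0.175). The count was 46 whichever single array was left out. Control scaling shifts every gene of an array by the same amount, and with it the median of all genes became 0.20 and that of the 48 became -0.49. The calls then dropped to 22 genes (45.8%), against 5.92% of all, and 46 of the 48 were still below 0, the exceptions being Pttg1 (0.08) and Cit (0.10). The 22 were Cdk1, Cdc25c, Aurka, Plk1, Plk4, Melk, Bub1, Bub1b, Ttk, Espl1, Kif11, Kif20a, Kif2c, Kif18a, Cenpe, Ndc80, Nuf2, Spc24, Aurkb, Ncapd2, Ncapg and Prc1. For the other 24 genes called as deposited, the last-step calls given below were lost with control scaling, although their differences stayed below 0.

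**Figure D2:**
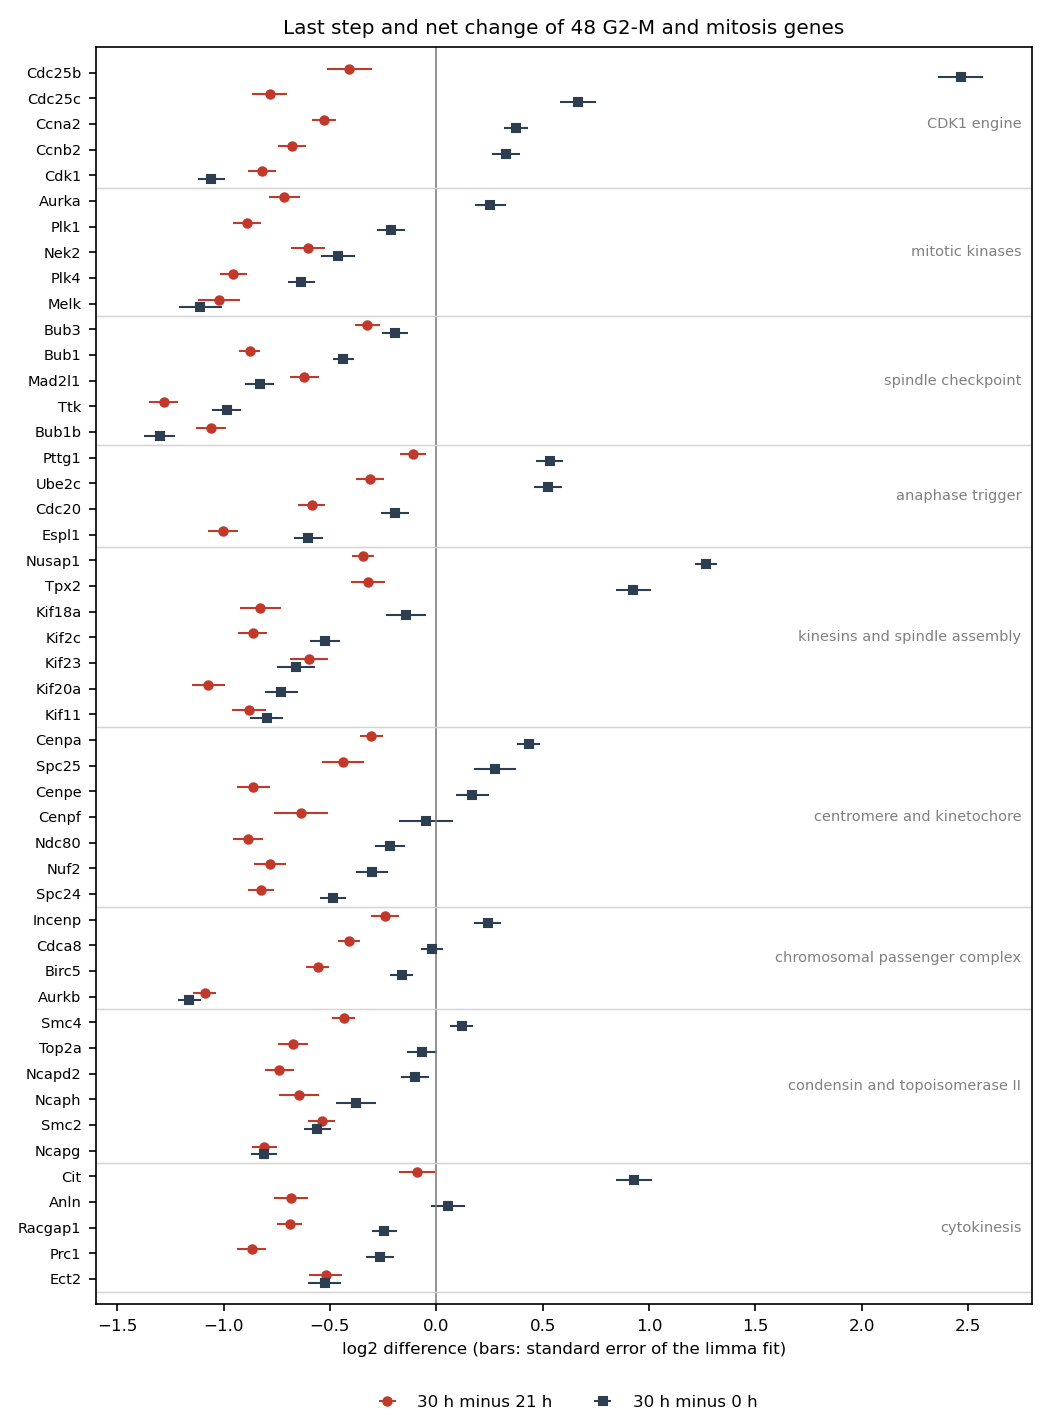
Log2 difference (horizontal axis) of 30 h minus 21 h (red circles) and of 30 h minus 0 h (dark squares) for each of the 48 genes (vertical axis), grouped by function; bars are standard errors of the limma fit. All circles lie left of 0, from -1.28 for Ttk to -0.09 for Cit, while the squares spread on both sides, from -1.30 for Bub1b to 2.46 for Cdc25b.

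At 30 h the genes stood on both sides of their starting level. Versus 0 h, 13 (27.1%) were called higher, against 36.6% of all genes, and 27 (56.2%) lower, against 33.0% of all. The 13 higher genes had all been called higher at 14 h as well. Of the 27 lower genes, 14 had been higher at 14 h (Plk1, Plk4, Nek2, Bub1, Ttk, Cdc20, Espl1, Kif11, Kif20a, Ndc80, Nuf2, Spc24, Birc5 and Prc1) and 13 had not been called there. The 14 h and 30 h comparisons share the 0 h arrays. With control scaling, Kif11 and Kif20a alone of these 14 genes kept both calls. Control scaling kept the same 13 genes as higher, against 39.3% of all, but left 10 lower, against 20.3% of all: Cdk1, Melk, Bub1b, Mad2l1, Ttk, Kif11, Kif20a, Kif23, Aurkb and Ncapg. The counts of the functional groups that follow are to be read against the shares of all tested genes. These are 22.2% higher at 14 h versus 0 h, 22.5% lower in the last step, and 36.6% higher and 33.0% lower at 30 h versus 0 h. The groups were not tested as lists.

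In the CDK1 engine, 4 of 5 genes ended above their start and Cdk1 itself ended below it, although all 5 fell between 21 and 30 h (Cdk1 and Cdc25c also with control scaling). Cdc25b encodes a phosphatase that removes the inhibitory phosphates from CDK1, and its probe set (1421963_a_at) had log2 levels of 7.81, 7.79 and 7.47 at 0 h, 8.05, 8.18 and 8.05 at 3 h, 9.20, 9.29 and 9.27 at 7 h, 10.36, 10.10 and 10.12 at 14 h, 10.44, 10.46 and 10.80 at 21 h and 10.19, 10.13 and 10.15 at 30 h. The arrays of each time up to 21 h lay wholly above those of the time before, and the 30 h arrays overlapped those of 14 h. Cdc25b was 2.46 higher at 30 h than at 0 h (SE 0.11, 5.52-fold, adjusted p = 5.06e-12), the largest rise of the 48 genes, with its steepest step of 1.16 between 3 and 7 h.

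Cdk1, the kinase of the engine (1448314_at), had log2 levels of 11.55, 11.53 and 11.52 at 0 h, 11.55, 11.49 and 11.52 at 3 h, 11.52, 11.57 and 11.47 at 7 h, 11.47, 11.56 and 11.62 at 14 h, 11.31, 11.33 and 11.27 at 21 h and 10.32, 10.57 and 10.55 at 30 h. All 12 arrays up to 14 h lay between 11.47 and 11.62, the 21 h arrays lay below them, and the 30 h arrays lay below all others. The fall was 0.25 from 14 to 21 h (adjusted p = 0.00717, lost with control scaling at adjusted p = 0.106) and a further 0.82 to 30 h (adjusted p = 7.48e-08), which left Cdk1 at -1.06 versus 0 h (SE 0.06, 2.08-fold lower, adjusted p = 4.11e-10).

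The cyclin genes kept part of their rise. Ccna2, cyclin A2, went from 11.24 ± 0.038 (log2 mean and SD, n = 3) at 0 h to 11.80 ± 0.041 at 3 h and 12.14 ± 0.066 at 21 h, and was at 11.62 ± 0.071 at 30 h, 0.38 above the start (adjusted p = 1.95e-05). Ccnb2, cyclin B2, rose more slowly, from 10.05 ± 0.07 at 0 h to 11.06 ± 0.044 at 21 h, and was 0.33 above its start at 30 h (adjusted p = 0.000315). Cdc25c, a phosphatase of CDK1 like Cdc25b, peaked at 9.33 ± 0.14 at 21 h and remained 0.67 higher at 30 h than at 0 h (adjusted p = 2.62e-06). Both CDC25 genes and both cyclin genes measured were above their start at 30 h, while Cdk1, whose product they act on, was below its own.

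**Figure D3:**
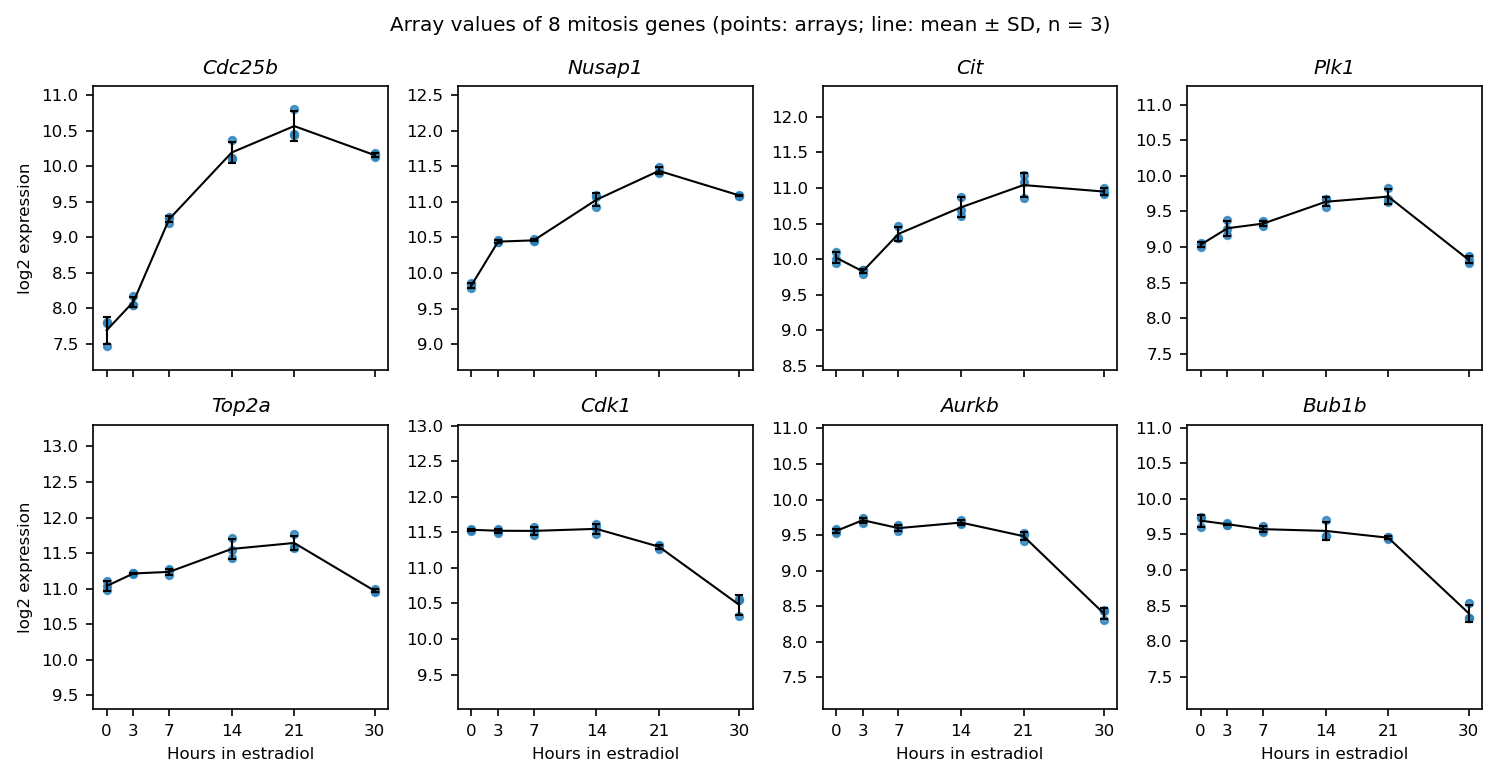
Log2 level (vertical axis, spanning the same number of units in every panel) against hours in estradiol (horizontal axis) for 8 genes; points are arrays, and the line and bars give the mean and SD of 3. The 30 h arrays of Cdk1, Aurkb, Bub1b and Plk1 lie below all their other arrays, those of Top2a overlap the 0 h arrays, and those of Cdc25b, Nusap1 and Cit lie above the 0 h arrays.

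Of the mitotic kinases, all 5 fell between 21 and 30 h, and Aurka was the 1 called higher at 30 h than at 0 h. Aurka, a centrosome and spindle pole kinase that activates PLK1 (1424511_at), had log2 levels of 9.13, 9.0 and 9.12 at 0 h, 9.29, 9.31 and 9.19 at 3 h, 9.56, 9.44 and 9.29 at 7 h, 9.78, 9.86 and 9.87 at 14 h, 10.10, 10.09 and 9.96 at 21 h and 9.26, 9.38 and 9.37 at 30 h. Its 21 h arrays lay above all others and its 30 h arrays lay above those of 0 h but among those of 3 and 7 h. The net difference was 0.25 (SE 0.07, adjusted p = 0.00477), but the mean of its probe sets gave -0.01. At the other end was Melk, a kinase of proliferating cells (1416558_at), with 8.02, 8.11 and 8.01 at 0 h, 8.11, 8.06 and 7.99 at 3 h, 8.04, 7.94 and 7.87 at 7 h, 8.01, 8.20 and 8.12 at 14 h, 8.10, 8.02 and 7.76 at 21 h and 6.71, 7.04 and 7.07 at 30 h. The 15 arrays before 30 h showed no called step, and the 30 h arrays were below them all, at -1.11 versus 0 h (SE 0.10, 2.16-fold lower, adjusted p = 5.61e-08).

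Plk1, the Polo-like kinase of mitotic entry and spindle assembly (1448191_at), had log2 levels of 9.05, 8.99 and 9.05 at 0 h, 9.17, 9.38 and 9.25 at 3 h, 9.36, 9.33 and 9.30 at 7 h, 9.56, 9.67 and 9.68 at 14 h, 9.83, 9.67 and 9.63 at 21 h and 8.80, 8.78 and 8.88 at 30 h. It rose by 0.60 to 14 h (adjusted p = 1.53e-06), its 14 and 21 h arrays overlapped, and its 30 h arrays were below all others. The last step was -0.89 (SE 0.07, 1.85-fold lower, adjusted p = 3.74e-08), and the net change of -0.21 (adjusted p = 0.0095) became -0.01 with control scaling. Plk4, which starts centriole duplication, was at -0.96 in the last step and -0.64 net. Nek2, a centrosome-splitting kinase, was at -0.60 and -0.46 (log2 differences, all 4 called). With control scaling the net calls of Plk4 and Nek2 were lost (adjusted p = 0.0502 and 0.249), and so was the last-step call of Nek2 (-0.41, adjusted p = 0.127).

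The spindle checkpoint was the group with the lowest net median, -0.83 (log2, 30 h versus 0 h), and all 5 of its genes were called lower both in the last step and versus the start, although with control scaling 3 were called in the last step, 3 versus the start, and Bub3 turned to 0.01 versus the start. Only 2 of the 5, Bub1 (0.34) and Ttk (0.25), had been called higher at 14 h. Bub1b, which encodes the checkpoint protein BUBR1 (1447363_s_at), had log2 levels of 9.60, 9.73 and 9.75 at 0 h, 9.64, 9.64 and 9.65 at 3 h, 9.62, 9.53 and 9.56 at 7 h, 9.47, 9.48 and 9.70 at 14 h, 9.46, 9.46 and 9.43 at 21 h and 8.33, 8.33 and 8.53 at 30 h. The 30 h arrays were about 1 log2 unit below the rest, and the 21 h arrays already lay below those of 0 h. Bub1b ended at -1.30 (SE 0.07, 2.46-fold lower, adjusted p = 1.10e-10), the largest net fall among the 48 genes, and a dimmer probe set of the gene was at -1.55.

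Bub3, the partner that brings BUB1 and BUBR1 to kinetochores (1416815_s_at), changed least, with 12.12, 12.06 and 12.17 at 0 h, 12.18, 12.22 and 12.14 at 3 h, 12.20, 12.19 and 12.19 at 7 h, 12.11, 12.32 and 12.16 at 14 h, 12.25, 12.27 and 12.21 at 21 h and 11.84, 12 and 11.92 at 30 h. The 30 h arrays lay below the other 15 by a small margin. Bub3 fell by 0.32 from 21 h (adjusted p = 0.000464), a call that was lost with control scaling (-0.13, adjusted p = 0.646). Its net difference of -0.20 (adjusted p = 0.00962) turned to 0.01 with control scaling. Ttk, the kinase MPS1 at the head of the checkpoint, had the largest last step of all members, -1.28 (SE 0.07, 2.43-fold lower, adjusted p = 1.35e-09), from 9.33 ± 0.051 to 8.05 ± 0.079. Mad2l1, the MAD2 protein that binds and restrains CDC20, was at -0.62 in the last step and -0.83 net. Bub1, a kinetochore kinase of the checkpoint, was at -0.88 and -0.44, and its net call was lost with control scaling (adjusted p = 0.293).

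The anaphase trigger was split. All 4 of its genes rose to 14 h, 3 of them already between 3 and 7 h, and at 30 h Pttg1 and Ube2c were above the start while Espl1 and Cdc20 were below it. Pttg1 encodes securin, the inhibitor of separase (1438390_s_at), and had log2 levels of 11.94, 11.93 and 11.86 at 0 h, 11.88, 11.90 and 11.80 at 3 h, 12.16, 12.22 and 12.15 at 7 h, 12.25, 12.45 and 12.44 at 14 h, 12.62, 12.56 and 12.48 at 21 h and 12.40, 12.46 and 12.47 at 30 h. The 30 h arrays overlapped those of 14 h and lay just under those of 21 h, a difference that was not called, and the net rise was 0.53 (SE 0.06, adjusted p = 1.06e-06). Espl1, which encodes separase, the protease that cuts cohesin (1433862_at), had 9.12, 9.06 and 9.11 at 0 h, 9.0, 9.03 and 9.0 at 3 h, 9.29, 9.28 and 9.15 at 7 h, 9.46, 9.56 and 9.52 at 14 h, 9.62, 9.51 and 9.37 at 21 h and 8.42, 8.44 and 8.62 at 30 h. Its 30 h arrays were the lowest of the course, 1.0 below 21 h (2.0-fold, adjusted p = 1.92e-08) and 0.60 below 0 h (adjusted p = 1.06e-06, lost with control scaling at adjusted p = 0.0704).

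Ube2c, the ubiquitin-conjugating enzyme of the APC/C, fell by 0.31 in the last step and stayed 0.52 above its start (adjusted p = 2.90e-06). Cdc20, the activator of the APC/C in mitosis, fell by 0.59, and its net difference of -0.19 (adjusted p = 0.0151) turned to 0.01 with control scaling.

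Among kinesins and spindle assembly factors the 5 motors and the 2 non-motor genes ended apart. All 7 fell in the last step, of which Kif11, Kif20a, Kif2c and Kif18a kept the call with control scaling. Nusap1, a microtubule-bundling protein of the spindle (1416309_at), had log2 levels of 9.85, 9.79 and 9.83 at 0 h, 10.46, 10.43 and 10.43 at 3 h, 10.45, 10.47 and 10.45 at 7 h, 11.09, 10.92 and 11.07 at 14 h, 11.40, 11.42 and 11.49 at 21 h and 11.09, 11.09 and 11.10 at 30 h. It rose in steps between 0 and 3 h, 7 and 14 h and 14 and 21 h, with its 3 and 7 h arrays overlapping, and its 30 h arrays lay close to those of 14 h. Its net rise was 1.27 (SE 0.05, 2.41-fold, adjusted p = 2.96e-12), second among members to Cdc25b. Tpx2, the activator of Aurora A on spindle microtubules, went from 10.23 ± 0.081 at 0 h to 11.48 ± 0.044 at 21 h and was 0.93 above its start at 30 h (adjusted p = 3.71e-08). The last step of Tpx2 was -0.32 (adjusted p = 0.00474). It was -0.13 (adjusted p = 0.66) with control scaling, and it was 0.11 (adjusted p = 0.338) when the mean of its 4 probe sets was used, of which a pair lay near the bottom of the scale.

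Kif11, the motor that pushes spindle poles apart (1435306_a_at), had 9.59, 9.58 and 9.35 at 0 h, 9.62, 9.53 and 9.57 at 3 h, 9.61, 9.58 and 9.52 at 7 h, 9.91, 9.72 and 9.80 at 14 h, 9.46, 9.61 and 9.70 at 21 h and 8.63, 8.77 and 8.73 at 30 h. Its 30 h arrays lay below all others, with a last step of -0.88 (1.84-fold lower, adjusted p = 2.79e-07) and a net difference of -0.80 (SE 0.08, adjusted p = 1.50e-07). Kif20a and Kif23, motors of the central spindle, were at -1.07 and -0.60 in the last step and at -0.73 and -0.66 net. Kif2c, a microtubule depolymerase at centromeres, was at -0.86 and -0.52, with the net call lost under control scaling (adjusted p = 0.147). Kif18a, which dampens chromosome oscillation, fell by 0.83 after an early rise and did not differ from its start by the test (-0.14, adjusted p = 0.19).

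In the centromere and kinetochore group, 6 of 7 genes were called higher at 14 h and all 7 fell in the last step. At 30 h 2 of the 7 were higher and 3 lower than at 0 h, beside 36.6% higher and 33.0% lower among all tested genes. Cenpa, the histone H3 variant that marks centromeres (1450842_a_at), had log2 levels of 10.76, 10.64 and 10.58 at 0 h, 11.00, 10.98 and 10.99 at 3 h, 11.20, 11.17 and 11.19 at 7 h, 11.30, 11.33 and 11.35 at 14 h, 11.39, 11.42 and 11.39 at 21 h and 11.04, 11.17 and 11.07 at 30 h. Its 30 h arrays were above those of 0 and 3 h and below those of 14 and 21 h, a net rise of 0.43 (SE 0.05, adjusted p = 2.03e-06). Spc24, a subunit of the NDC80 complex that grips microtubules (1431087_at), had 9.58, 9.52 and 9.66 at 0 h, 9.55, 9.50 and 9.50 at 3 h, 9.63, 9.60 and 9.55 at 7 h, 9.73, 9.74 and 9.84 at 14 h, 9.95, 9.85 and 9.97 at 21 h and 8.98, 9.13 and 9.19 at 30 h. Its 30 h arrays were below all others, at -0.82 in the last step (adjusted p = 4.90e-08) and -0.49 net (SE 0.06, adjusted p = 3.44e-06, lost with control scaling at adjusted p = 0.206).

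The 4 subunits of the NDC80 complex did not end together. Spc25 was called higher than at the start (0.28, adjusted p = 0.0202), while Ndc80 (-0.22, adjusted p = 0.0112), Nuf2 (-0.30, adjusted p = 0.00189) and Spc24 were called lower, and none of these 3 lower calls held with control scaling. In the last step Ndc80 (-0.88), Nuf2 (-0.78) and Spc24 moved further than Spc25 (-0.44), a difference between genes that was not tested. Cenpe, a kinetochore motor, rose by 0.78 to 14 h, fell by 0.86 in the last step and ended 0.17 from its start (adjusted p = 0.0627). Cenpf, a large outer kinetochore protein, was called lower in the last step (-0.63, adjusted p = 0.000772). With control scaling that call was lost (-0.44, adjusted p = 0.10) and Cenpf was called higher at 14 h than at 0 h (0.49, adjusted p = 0.0497).

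The chromosomal passenger complex, in which Aurora B is held by INCENP, survivin and borealin, was as uneven. Aurkb, the kinase (1451246_s_at), had log2 levels of 9.55, 9.53 and 9.59 at 0 h, 9.74, 9.67 and 9.71 at 3 h, 9.55, 9.64 and 9.61 at 7 h, 9.71, 9.65 and 9.67 at 14 h, 9.42, 9.54 and 9.50 at 21 h and 8.30, 8.45 and 8.44 at 30 h. Its 30 h arrays were about 1 log2 unit below all others, and it fell by 1.09 in the last step (2.13-fold, adjusted p = 6.36e-10) to -1.16 net (SE 0.05, 2.24-fold lower, adjusted p = 1.35e-11). Incenp, the scaffold (1439436_x_at), had 12.30, 12.31 and 12.48 at 0 h, 12.49, 12.56 and 12.48 at 3 h, 12.59, 12.51 and 12.53 at 7 h, 12.68, 12.71 and 12.75 at 14 h, 12.97, 12.83 and 12.74 at 21 h and 12.61, 12.56 and 12.63 at 30 h. It lay above its 0 h arrays and below its 14 and 21 h arrays at 30 h, a net rise of 0.24 (SE 0.07, adjusted p = 0.00386). Birc5, survivin, fell by 0.56 in the last step, and its net difference of -0.16 (adjusted p = 0.0127) turned to 0.04 with control scaling. Cdca8, borealin, fell by 0.41 and ended at -0.02 (adjusted p = 0.738).

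Of the condensin and topoisomerase II genes, all 6 fell in the last step, 3 were lower at 30 h than at 0 h and none was called higher. With control scaling the last step was called for Ncapd2 (-0.55, adjusted p = 0.0372) and Ncapg (-0.62, adjusted p = 0.0172) alone, and the adjusted p was 0.0730 for Top2a, 0.0837 for Ncaph, 0.198 for Smc2 and 0.372 for Smc4. Smc4, an ATPase arm of condensin (1452197_at), had log2 levels of 10.75, 10.81 and 10.67 at 0 h, 10.97, 11.00 and 11.06 at 3 h, 10.98, 10.92 and 10.96 at 7 h, 11.14, 11.15 and 11.16 at 14 h, 11.33, 11.26 and 11.31 at 21 h and 10.85, 10.80 and 10.95 at 30 h. Its 30 h arrays overlapped those of 0 h, and the net difference was 0.12 (adjusted p = 0.0612). Ncapg, a condensin I subunit (1429171_a_at), had 11.63, 11.60 and 11.59 at 0 h, 11.66, 11.62 and 11.59 at 3 h, 11.62, 11.60 and 11.51 at 7 h, 11.69, 11.66 and 11.83 at 14 h, 11.67, 11.55 and 11.60 at 21 h and 10.72, 10.81 and 10.86 at 30 h. It was flat over the 15 earlier arrays, with no step called, and its 30 h arrays lay wholly below them, at -0.81 net (SE 0.06, 1.75-fold lower, adjusted p = 3.80e-09).

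Top2a, the topoisomerase that untangles sister chromatids (1454694_a_at), had 11.10, 11.03 and 10.97 at 0 h, 11.22, 11.22 and 11.21 at 3 h, 11.25, 11.27 and 11.19 at 7 h, 11.71, 11.54 and 11.42 at 14 h, 11.59, 11.57 and 11.76 at 21 h and 10.97, 10.95 and 10.99 at 30 h. It rose by 0.52 to 14 h (adjusted p = 1.39e-05), fell by 0.67 after 21 h (adjusted p = 1.35e-06) and at 30 h overlapped its 0 h arrays (-0.07, adjusted p = 0.403). Smc2, the other ATPase arm, was at -0.56 net although Smc4 was not called. Ncaph, the kleisin of condensin I, was at -0.38, and Ncapd2, a HEAT-repeat subunit, at -0.10 (adjusted p = 0.194). With control scaling the net calls of Smc2 and Ncaph were lost (adjusted p = 0.106 and 0.437).

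Cytokinesis held genes that rose by 3 h, Anln and Ect2, and Cit, 1 of the 2 members not called in the last step. Cit encodes citron kinase of the midbody (1455609_at) and had log2 levels of 10.11, 10.01 and 9.95 at 0 h, 9.80, 9.84 and 9.84 at 3 h, 10.29, 10.47 and 10.30 at 7 h, 10.70, 10.88 and 10.61 at 14 h, 11.18, 11.08 and 10.86 at 21 h and 10.92, 10.93 and 11.00 at 30 h. Its 3 h arrays were its lowest, it rose by 0.53 to 7 h (adjusted p = 0.000511), and its 21 and 30 h arrays overlapped. The net rise was 0.93 (SE 0.09, 1.90-fold, adjusted p = 6.54e-08). Ect2, the exchange factor that activates RHOA at the division plane (1419513_a_at), had 9.99, 10.10 and 10.18 at 0 h, 10.42, 10.55 and 10.54 at 3 h, 10.19, 10.06 and 10.28 at 7 h, 10.20, 10.23 and 9.98 at 14 h, 10.06, 10.12 and 10.07 at 21 h and 9.52, 9.59 and 9.58 at 30 h. Its 3 h arrays were above all others and its 30 h arrays below all others, with 0, 7, 14 and 21 h overlapping in between. It rose by 0.41 to 3 h (adjusted p = 0.000817), fell by 0.33 to 7 h (adjusted p = 0.00748) and ended at -0.53 (SE 0.08, adjusted p = 1.27e-05, lost with control scaling at adjusted p = 0.14).

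Anln, anillin, the scaffold of the contractile ring, also rose early, from 9.19 ± 0.12 at 0 h to 9.86 ± 0.075 at 3 h, fell by 0.68 in the last step and ended 0.05 from its start (adjusted p = 0.568). Prc1, which bundles the central spindle, was at -0.87 in the last step and -0.27 net. Racgap1, the GTPase-activating partner of ECT2 and of the KIF23 motor, was at -0.69 and -0.24. The net calls of both were lost with control scaling (adjusted p = 0.788 and 0.861).

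**Figure D4:**
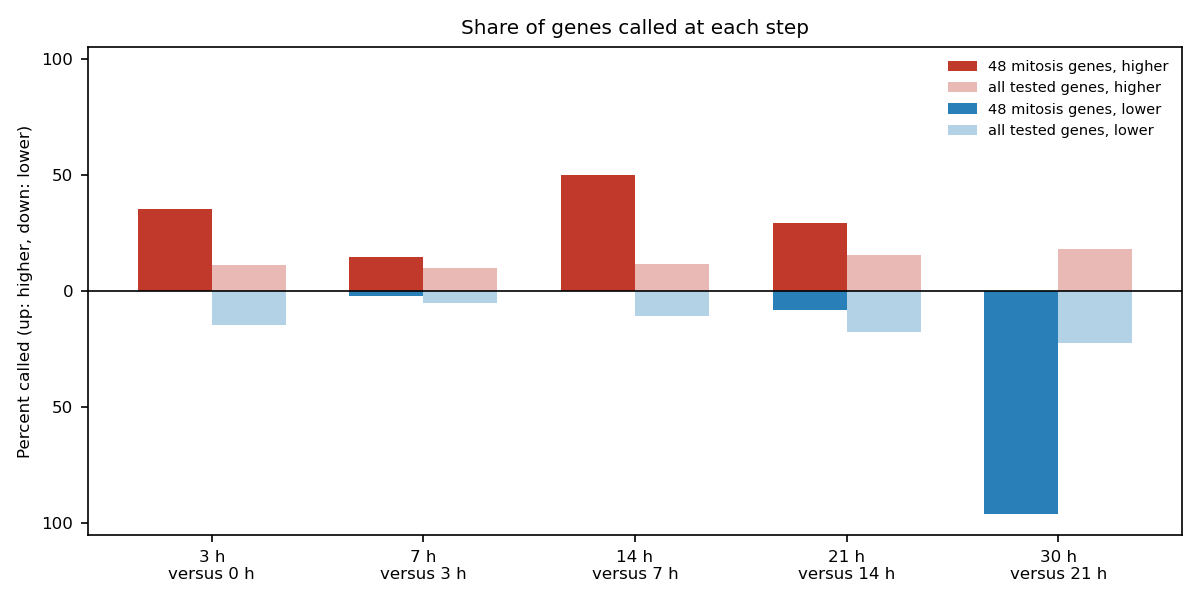
Percent (vertical axis) of the 48 genes (dark bars) and of all 12719 tested genes (pale bars) called higher (red, upward) or lower (blue, downward) in each of the 5 steps between neighbouring times (horizontal axis). The 95.8% of the 48 genes called lower at 30 h versus 21 h stand beside 22.5% of all genes.

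Several probe sets of a gene rarely gave opposite calls but often differed in whether they were called. Of the 33 genes with more than 1 tested probe set, opposite calls occurred in 1 gene for 30 h versus 21 h, in 2 genes for 30 h versus 0 h and in 0 for the other 5 comparisons. All tested probe sets of a gene shared the call in 26 of the 33 genes for 30 h versus 21 h and 22 for 30 h versus 0 h. The number was 21 for 14 h versus 0 h and 17, the lowest, for 14 h versus 7 h. For Tpx2 a dim probe set at a mean log2 level of 3.41 rose by 0.92 in the last step while the brighter pair fell by 0.32 and 0.51. Racgap1 was at -0.24 net by the probe set used and at 0.39 by another. Incenp was at 0.24 by the probe set used, at 0.24 and 0.41 by a pair of others, and at -0.44 by a dimmer set at a mean level of 5.58. Probe sets of 13 members have the suffix _x_at or _s_at, which marks probes that can match related transcripts.

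Genes of the same pathway outside the 49 were mostly lower in the last step too. Of 121 listed, 120 were tested: 56 were called higher and 11 lower at 14 h versus 0 h, 8 higher and 81 lower at 30 h versus 21 h (median log2 difference -0.40), and 33 higher and 58 lower at 30 h versus 0 h (median -0.12). Of all tested genes, 22.2% were called higher and 22.7% lower in the first of these comparisons, 18% and 22.5% in the second, and 36.6% and 33.0% in the third. The counts of the smaller lists that follow are to be read against the 22.5% called lower and 18% called higher in the last step, and they were not tested as lists. All values of these pathway genes are as deposited, and the lists were not examined with control scaling. For the 48 genes that scaling cut the calls in the last step from 46 to 22. All 7 other mitotic kinesins fell in the last step, with Kif14 (-1.50, to a mean level of 4.12) and Kif20b (-0.85) moving most. Of 30 other kinetochore and shugoshin genes 25 fell and 1 rose, led by Ska1 (-1.22), which couples kinetochores to microtubules, and Cenpn (-1.19), which reads CENP-A nucleosomes. Of 19 other spindle and mitotic proteins 17 fell, led by Trip13 (-1.31), an ATPase that remodels MAD2, and the kinase gene Pbk (-1.06).

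Of the 15 genes of the APC/C list, 6 were called lower, with a median log2 difference of -0.11. The most changed were Fbxo5 (-1.07), which encodes the APC/C inhibitor EMI1, and the subunit gene Cdc23 (-0.52). Of 14 condensin II and cohesin genes 7 fell and 1 rose, led by Cdca5 (-1.18), sororin, and the condensin II subunit gene Ncapg2 (-1.06). Of 14 regulators of the G2-M transcription programme 9 fell and 2 rose, and Mybl2 (-1.35), which encodes B-MYB, and E2f7 (-1.34), a repressor of the E2F family, changed most. Of 7 other cytokinesis genes 2 fell, Shcbp1 (-0.60) and Arhgap11a (-0.55), and 2 rose.

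The list of entry brakes and regulators held the widest spread, with 8 of 14 genes lower and 2 higher in the last step. Chek1, the checkpoint kinase that restrains CDC25 phosphatases, went from 10.46 at 0 h to 9.96 at 21 h and 8.28 at 30 h (mean log2 level, n = 3), a last step of -1.68 (SE 0.06, adjusted p = 1.41e-11). Cdc14b, a phosphatase that removes phosphates placed by CDKs, went the other way, from 5.89 at 0 h to 7.28 at 21 h and 9.0 at 30 h, a last step of 1.72 (SE 0.12, adjusted p = 1.34e-08) and a net rise of 3.11 (adjusted p = 9.92e-13).

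The promoter elements were also counted by where the genes ended. A sequence was available for 9 of the 13 genes called higher at 30 h than at 0 h and for 24 of the 27 called lower. Of the 9 promoter sequences of genes called higher at 30 h than at 0 h, 66.7% held a CHR element, 55.6% its form TTTGAA, 66.7% a CCAAT box and 66.7% both a CHR element and a CCAAT box. Of the 27 sequences of genes called lower, which belong to 24 genes, 74.1% held a CHR element, 70.4% its form TTTGAA, 70.4% a CCAAT box and 66.7% both. At the extremes, the windows printed above for Cdc25b and Bub1b, the highest and the lowest of the 48 genes at 30 h versus 0 h, each held both elements, and those for Nusap1 and Melk held neither. This comparison is a count of letters over few sequences and was not tested.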

How the data were processed

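RNA of G1E-ER4 cells was measured on 18 Affymetrix arrays, 3 at each of 6 times. The authors deposited log2 values of 45101 probe sets on each array, including 64 controls. The base was read from the values, whose maximum is 14.4, and array medians were already level. The sources used here do not give how probes were summarised and scaled, and each change is relative to the middle of the array. No detection calls were analysed here, and the number of arrays limits the precision.

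Genes were named by the platform annotation of the probe sets: 34945 non-control probe sets name 1 gene, 932 several and 9160 none. The single-gene probe set with the highest mean stood for its gene. Genes that did not exceed the 40th percentile on 3 or more arrays were left out. limma 3.58.1 in R 4.3.3 (lmFit and eBayes, two-sided) was fitted to all 18 arrays with 1 mean per time, 12 residual degrees of freedom and no block, and p-values were adjusted by Benjamini-Hochberg over all genes tested. The procedure was tested on simulated data.

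The members and gene lists were chosen with earlier results of these data known. All members are accounted for. Array values are given for the member with the highest and the lowest 30 h minus 0 h difference in each group and for Cdk1, Plk1, Aurkb, Top2a and Cdc25b, and of each pathway list up to 2 called genes with the largest change after 21 h are named. Alternatives were quantile, median and hybridisation control scaling, no filter or one at the 60th percentile, averaging all probe sets of a gene, omission of _x_at and _s_at probe sets, only the arrays compared, a trended and robust variance, a replicate block, and leaving out each array. Testing every probe set on its own was added after seeing the data. Promoters are RefSeq sequences of GRCm38.p6.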

Additional observations from a re-analysis of the deposited data

How the results depend on the processing

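The fall from 21 to 30 h kept 46 genes called lower whichever array was left out, and 34 higher at 14 h, 13 higher at 30 h and 27 lower at 30 h versus 0 h became 32 to 36, 13 to 14 and 24 to 28. Leaving out 1 array gave 4 to 10 genes higher and 1 lower for 7 h versus 3 h, 6 to 15 higher and 1 to 4 lower for 21 h versus 14 h, and 0 to 1 lower for 14 h versus 0 h (1 without 14 h replicate 3). The ranges were 12 to 18 higher for 3 h versus 0 h and 19 to 25 for 14 h versus 7 h. Hybridisation control scaling changed most: 3 higher at 3 h versus 0 h, 1 higher and 0 lower at 7 h versus 3 h, 0 higher and 0 lower at 21 h versus 14 h, 22 lower at 30 h versus 21 h and 10 lower at 30 h versus 0 h. By construction it adds the spread of the control probe sets to every gene. For 21 h versus 14 h, no filter gave 8 higher, and only the arrays of those times gave 3 higher and 0 lower. Those arrays also gave 1 lower for 3 h versus 0 h. For 7 h versus 3 h, the genes called lower numbered 2 with the 60th percentile filter, 3 with the mean of probe sets, 2 with only the arrays compared and 4 with the trended and robust variance. The cause was not tested for these. Changes of direction are listed here only for genes called with or without the alternative. Those under control scaling were Aurka -0.0042, Pttg1 -0.043, Cdca8 -0.074, Smc4 -0.064 and Prc1 -0.019 at 21 h versus 14 h, and Bub3 0.0070, Cdc20 0.0090 and Birc5 0.040 at 30 h versus 0 h (log2). With the mean of probe sets they were Bub3 -0.24 (adjusted p = 0.0349) and Kif18a -0.029 at 21 h versus 14 h, Tpx2 0.11 at 30 h versus 21 h and Aurka -0.0077 at 30 h versus 0 h. Without _x_at and _s_at probe sets they were Plk4 -0.019 at 3 h versus 0 h and Ncaph 0.24 (adjusted p = 0.0213) at 14 h versus 7 h. Differences called in neither fit also changed direction: 63 under control scaling, 24 with the mean of probe sets and 12 without _x_at and _s_at probe sets. The number was 5 each with quantile and median scaling, and 69 over all fits that left out 1 array. Replicate numbers did not pair the arrays on average. Deviations of the 45 same-numbered pairs correlated at -0.32 to 0.31, 13 of them over 0.1. Their mean was -0.00047, beside 9.04e-05 for differently numbered pairs. Whether arrays of some times shared a batch was not tested. With the replicate block 16 genes were higher at 3 h versus 0 h, 23 at 14 h versus 7 h, and 12 higher and 3 lower at 21 h versus 14 h. The other counts were as without the block.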
